A study of Mus musculus with 8 samples.

Results

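The forkhead transcription factor genes were examined in ATAC-seq data from hearts of mouse embryos. The members were all protein-coding genes of GENCODE release M21 whose symbol is Fox followed by 1 letter and a number, which gave 44 of 21951 protein-coding genes. A listed peak was given to a member when the member had the nearest protein-coding transcription start site (TSS) to the peak centre. It was also given to a member when any base of the peak lay within 10 kb of the member's gene body. By this rule 90 of 15736 listed peaks belonged to forkhead genes, of which 77 were gained and 13 lost.

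Hearts were taken at E10.5 from wild-type (WT) embryos and from *Chd4-CMko* embryos, as 4 pools of hearts for each genotype. In *Chd4-CMko* embryos both copies of *Chd4*, which encodes a nucleosome remodeller of the NuRD complex, are floxed alleles (Chd4 fl/fl) and are recombined by Cre from the *Tnnt2* gene (Tnnt2 Cre/+), which is active in cardiomyocytes. Endocardial, epicardial, mesenchymal and blood cells of the whole heart do not express this Cre, and both sexes were used. The deposited lists hold the peaks past the fold-change limit set by the authors, higher in *Chd4-CMko* (gained, 12991 peaks) or higher in WT (lost, 2745 peaks). Each list pools a genotype and holds no value per sample. Replicate spread could therefore not be computed, no test between genotypes was possible, and the intervals given here cover counting error only. More accessible DNA per cell and more cells of a type cannot be told apart in whole hearts. The cell types were not checked by their markers, because a list of differential peaks does not show which genes are active. *Chd4* itself had 2 gained peaks, 1 of them within 3 kb of a TSS, and no lost peak. Loss of the floxed exons could not be checked in these lists.

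Forkhead proteins share a winged-helix DNA-binding domain that recognises a short AT-rich core. Several members can bind their sites in compacted chromatin, and the family has roles in germ layer patterning, vessel and valve formation, metabolism and the cell cycle. In the embryonic heart, FOXC and FOXF factors act in outflow tract and second heart field progenitors and in endothelium, while FOXP1 and FOXO factors act in the growth of the myocardium and the valves.

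At least 1 gained peak was found at 27 of the 44 forkhead genes (61.4%, Wilson 95% interval 46.6 to 74.3), against 37.4% of all protein-coding genes. At least 1 lost peak was found at 8 members (18.2%, 9.51 to 32.0), against 10.8% of all protein-coding genes. Both kinds were found at 7 members (15.9%, 7.93 to 29.4; 6.36% of all protein-coding genes), and *Foxd3*, a regulator of neural crest, was the only member with a lost peak and no gained peak. The gained list supplied 85.6% of the forkhead peaks (76.8 to 91.4) and 82.5% of all other listed peaks, a difference of 3.02 percentage points with a Newcombe 95% interval of −5.72 to 8.85. The balance of gained and lost peaks at forkhead genes thus did not differ detectably from that in the rest of the lists.

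**Figure D1:**
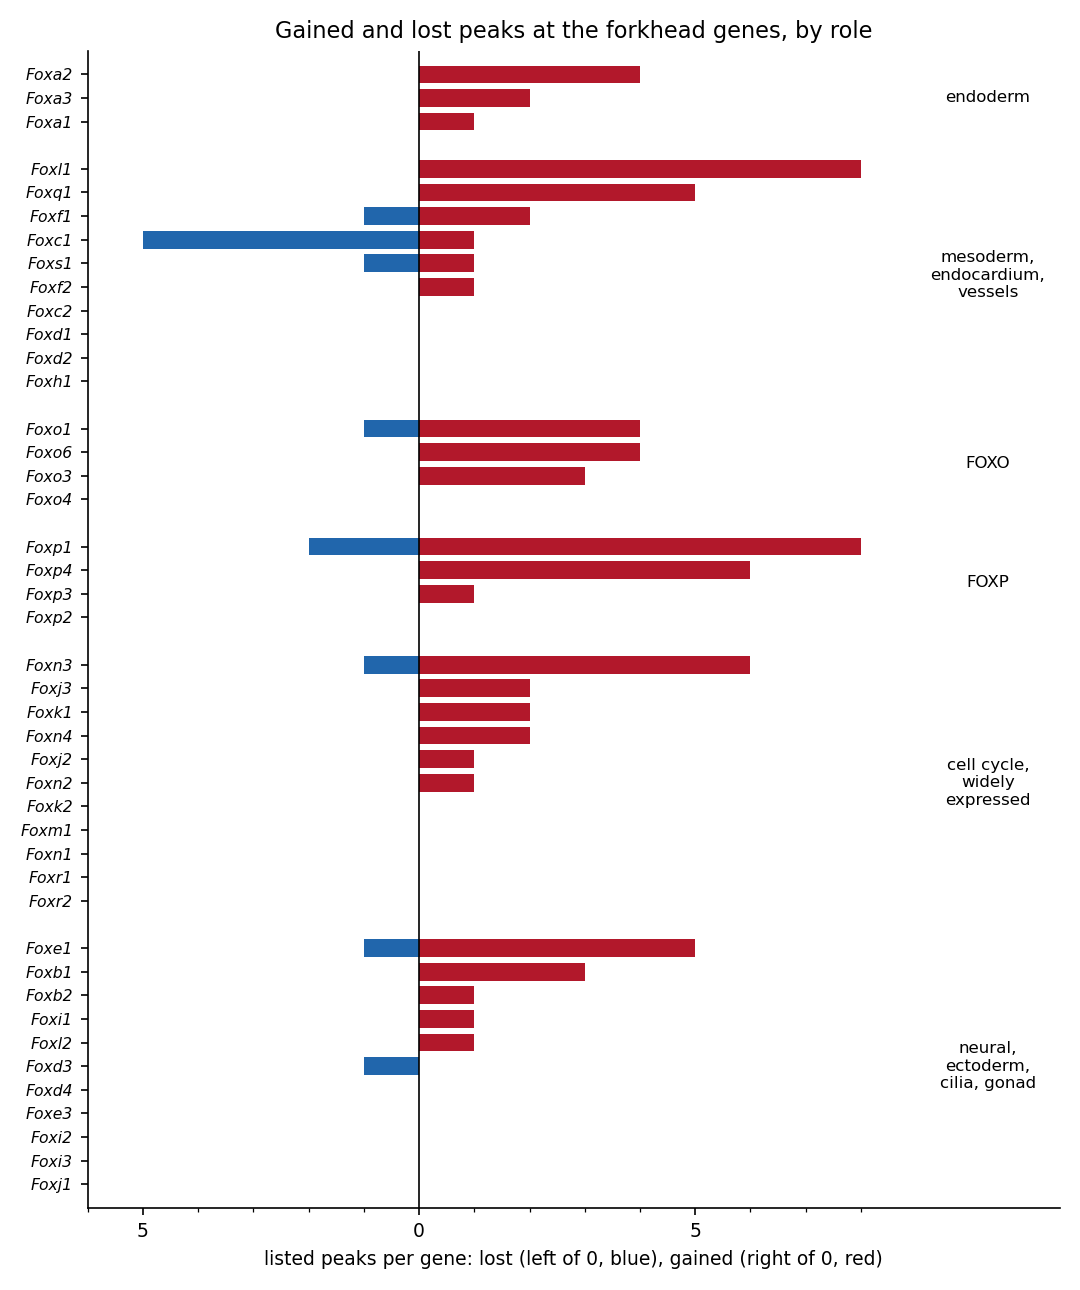
Number of listed peaks at 43 of the 44 forkhead genes, grouped by role, with gained peaks as red bars to the right of 0 and lost peaks as blue bars to the left. *Foxl1* and *Foxp1* have the most gained peaks (8 each) and *Foxc1* the most lost peaks (5).

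The counts were uneven among the members. Of the 27 genes with a gained peak, 11 had 1 peak, 7 had 2 or 3, and 9 had 4 or more, and these 9 genes held 50 of the 77 gained peaks. *Foxl1* and *Foxp1* had 8 each, *Foxn3* and *Foxp4* 6 each, *Foxe1* and *Foxq1* 5 each, and *Foxa2*, *Foxo1* and *Foxo6* 4 each. Among all protein-coding genes, 16.3% had at least 2 gained peaks, 4.12% at least 4 and 0.570% (125 genes) at least 8. Of the 13 lost peaks, *Foxc1* had 5, *Foxp1* had 2 and *Foxd3*, *Foxe1*, *Foxf1*, *Foxn3*, *Foxo1* and *Foxs1* had 1 each. Counts of 5 or more lost peaks occurred at 13 protein-coding genes (0.0593%). No listed peak fell to the remaining 16 members, *Foxc2*, *Foxd1*, *Foxd2*, *Foxd4*, *Foxe3*, *Foxh1*, *Foxi2*, *Foxi3*, *Foxj1*, *Foxk2*, *Foxm1*, *Foxn1*, *Foxo4*, *Foxp2*, *Foxr1* and *Foxr2*. A gene without a listed peak may have accessible sites that stayed under the fold-change limit or no accessible site, and the lists do not separate these.

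The peaks near the gene starts were first compared by sequence. Gained peaks reached within 3 kb of a start site at 11 of 44 members (25.0%, 14.6 to 39.4), against 12.3% of all protein-coding genes, and a lost peak at 2 members (4.55%, 1.26 to 15.1), against 1.23%. There were 13 such gained peaks, 12 of them within 1 kb, and all 13 scored above the median of the gained list. The score is the peak value deposited by the authors, whose scale is not stated, so that it was used only as a rank within a list, apart from an alternative score limit given at the end. The gained promoter peaks scored between 94 and 322 (median 158). The 15 gained forkhead peaks within 3 kb of any protein-coding TSS had a median score of 155 (39.5 to 322). The 2960 other gained peaks at such distances had a median of 122.5 (21 to 696.5), also above the list median of 62.5. The GC content of the gained promoter peaks ran from 64.2% to 80.1%. The following peaks, each 151 bases long and written 5′ to 3′ on the plus strand of mm10 (GRCm38), show this base composition, with CpG dinucleotides in capitals. The first 3 are gained promoter peaks with high scores. Then follow the gained and the lost peak at the *Foxe1* promoter, and the upstream part of the lost peak at the *Foxs1* promoter.

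Foxp4, gained, chr17:47925047-47925197: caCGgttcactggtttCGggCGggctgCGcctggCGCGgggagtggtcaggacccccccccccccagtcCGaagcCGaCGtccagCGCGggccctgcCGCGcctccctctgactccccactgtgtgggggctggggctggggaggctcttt
Foxf2, gained, chr13:31625478-31625628: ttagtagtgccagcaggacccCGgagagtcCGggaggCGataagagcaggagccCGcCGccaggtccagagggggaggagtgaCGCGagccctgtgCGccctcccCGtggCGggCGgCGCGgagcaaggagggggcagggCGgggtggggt
Foxf1, gained, chr8:121084214-121084364: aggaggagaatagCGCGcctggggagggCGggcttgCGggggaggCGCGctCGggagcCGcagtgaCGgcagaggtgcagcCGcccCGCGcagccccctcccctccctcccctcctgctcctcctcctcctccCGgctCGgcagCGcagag
Foxe1, gained, chr4:46344335-46344485: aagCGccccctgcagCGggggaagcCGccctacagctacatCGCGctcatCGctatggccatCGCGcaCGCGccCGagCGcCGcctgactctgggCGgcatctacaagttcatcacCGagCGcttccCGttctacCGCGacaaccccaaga
Foxe1, lost, chr4:46342838-46342988: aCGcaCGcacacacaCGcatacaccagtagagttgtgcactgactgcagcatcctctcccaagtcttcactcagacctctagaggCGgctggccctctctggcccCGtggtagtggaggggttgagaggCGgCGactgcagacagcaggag
Foxs1, lost, upstream bases, chr2:152933209-152933329: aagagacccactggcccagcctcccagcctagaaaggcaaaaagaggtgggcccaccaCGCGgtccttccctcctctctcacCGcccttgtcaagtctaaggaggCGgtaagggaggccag

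The *Foxp4* peak held 13 CpG dinucleotides, the *Foxf2* peak 14, the *Foxf1* peak 15 and the gained *Foxe1* peak 19. The lost *Foxe1* peak held 7 and the whole lost *Foxs1* peak 5. Gained forkhead peaks within 3 kb of any protein-coding TSS had a median of 14 CpG dinucleotides and a GC content of 70.5% ± 7.05 (SD, n = 15 peaks), against a median of 6 and 64.4% ± 10.1 (n = 2960) for the other gained peaks at such distances. Of these 15 peaks, 11 held at least 8 CpG dinucleotides and 4 held 0 to 2. The 4 were the *Foxj2* promoter peak, the *Foxp4* peak 683 bp inside a transcript, and peaks of *Foxj3* and *Foxn4* near the starts of *Guca2a* and *Acacb*. GC content at the gene starts, over 500 bases to either side, was 61.8% ± 9.65 in members with a gained promoter peak (n = 11) and 61.7% ± 7.25 in those without (n = 33), a difference far below the spread between genes. Over the other protein-coding genes it was 59.0% ± 7.93 with such a peak (n = 2689) and 53.4% ± 9.78 without (n = 19205). Forkhead gene starts are GC-rich as a group, and 17 of the 44 had at least 65% GC. Of these, 5 had a gained promoter peak, against 23.2% of all protein-coding genes in that class. Between 60% and 65% GC the count was 3 of 9 members, against 16.0%, and below 60% it was 3 of 18, against 9.50%. Depth per sample and the set of all accessible promoters were not analysed here, and the part of base composition in which peaks passed the limit was not tested.

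Among the endoderm factors, which open chromatin at liver, lung and gut genes, all 3 members had gained peaks (interval 43.9 to 100%, against 37.4% of all protein-coding genes) and none of their 7 peaks was lost. *Foxa2* had a gained promoter peak 311 bp upstream of its nearest TSS (score 158, percentile 86.1 of the gained list). It also had a pair of peaks 67.8 and 70.6 kb upstream with scores of 140.5 and 188.5, and a low peak 70.6 kb downstream (31.5). *Foxa3* had a promoter peak 103 bp upstream (155) and a peak 8.16 kb upstream, in *Sympk* (48.5). *Foxa1* had 1 peak, in its coding sequence 3.67 kb from the TSS (124.5). These genes mark endoderm, a germ layer that does not form the heart tube.

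Among the 10 mesoderm, endocardial and vascular factors, 6 had gained peaks (interval 31.3 to 83.2%, against 37.4% of all protein-coding genes) and 3 had lost peaks (10.8 to 60.3%, against 10.8%). Many of these lie in clusters of paralogues. *Foxf1*, a factor of lateral plate mesoderm and its vessels, lies on chromosome 8 within 46.3 kb of *Foxc2* and *Foxl1*, and this cluster had 10 gained peaks and 1 lost peak. *Foxq1*, *Foxf2* and *Foxc1* lie within 256 kb on chromosome 13, and this cluster had 7 gained and 5 lost peaks. Another cluster, *Foxe3* and *Foxd2* on chromosome 4 (19.7 kb apart at most), had none of either kind.

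*Foxl1*, a factor of the gut mesenchyme, had 8 gained peaks and no lost peak. None lay at its promoter. They ran from 46.5 to 174 kb downstream of the TSS, over 127 kb on chromosome 8. Over the 217 kb assigned to *Foxl1* this is 36.9 gained peaks per Mb, against 4.89 outside the family. The scores were 137, 208.5, 62, 64, 93.5, 98.5, 188 and 73 in order of distance. The score of 62 was just under the median of the gained list (62.5) and the other 7 were above it. The 4 nearest were intergenic and the 4 farthest lay in an intron of *Gm26815*, a noncoding gene. The rule gives these peaks to *Foxl1* as the nearest coding gene, and no measurement here ties them to *Foxl1* rather than to *Foxc2* or *Foxf1*. The highest-scoring peak is shown because it held 3 copies of an NFY string, the CCAAT box. The string was searched on both strands as CCAAT followed by CA, GA, CG or GG, and is in capitals.

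Foxl1, gained, chr8:121224880-121225030: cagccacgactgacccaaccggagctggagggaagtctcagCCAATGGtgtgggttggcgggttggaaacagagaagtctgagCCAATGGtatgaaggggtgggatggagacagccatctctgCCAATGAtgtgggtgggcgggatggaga

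An NFY string occurred in 3 of the 8 *Foxl1* peaks, and over all members in 13 of 77 gained peaks (16.9%, 10.1 to 26.8) against 19.2% of the other gained peaks, a difference of −2.31 points (−9.08 to 7.61). The copies in this peak therefore did not mark the forkhead peaks as a group.

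*Foxc1*, which acts in the outflow tract, the endocardium and lymphatic vessels, showed the reverse. It had 5 lost peaks, which lay 57.1, 137, 149, 186 and 202 kb downstream of the TSS, over 145 kb (chr13:31863619-32009045). Their scores were 20.1, 20.9, 42.7, 66.5 and 41.4, and the median of the lost list was 36.8. Over the 301 kb assigned to *Foxc1* this is 16.6 lost peaks per Mb, against 1.04 outside the family. The 1 gained peak of *Foxc1* was nearer than the lost ones, 20.3 kb downstream (43.5). All 6 peaks lay in introns of *Gmds*, which encodes GDP-mannose dehydratase, runs toward *Foxc1* from the far side and has its own start beyond the lost peaks. *Gmds* spans 519 kb and held 7 lost peaks and 1 gained peak in all, so that the 5 peaks are counted at both genes. *Foxc1* and *Gmds* were 2 of 7 protein-coding genes with at least 5 lost peaks and more lost than gained peaks, with *Bach2*, *Dock4*, *Kif2a*, *Mcc* and *Zfpm2*, the last of which encodes the cardiac GATA partner FOG2. The lost peak with the highest score and the farthest one are given below, the latter with its MEF2 string in capitals. MEF2 is a cardiac and muscle transcription factor, and of the strings searched, the 5 lost *Foxc1* peaks held only this one and an ETS string (ACAGGAAG) at 137 kb.

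Foxc1, lost, chr13:31992461-31992611: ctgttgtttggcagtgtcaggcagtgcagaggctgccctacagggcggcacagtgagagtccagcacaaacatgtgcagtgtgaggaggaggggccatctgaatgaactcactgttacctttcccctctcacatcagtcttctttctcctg
Foxc1, lost, chr13:32008895-32009045: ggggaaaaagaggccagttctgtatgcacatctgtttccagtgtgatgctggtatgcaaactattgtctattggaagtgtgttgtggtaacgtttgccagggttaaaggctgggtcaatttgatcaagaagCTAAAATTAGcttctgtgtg

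A MEF2 string occurred in 1 of the 13 lost forkhead peaks (7.69%, 1.37 to 33.3) and in 1.43% of the other lost peaks. The difference of 6.26 points had an interval of −0.08 to 31.9.

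**Figure D2:**
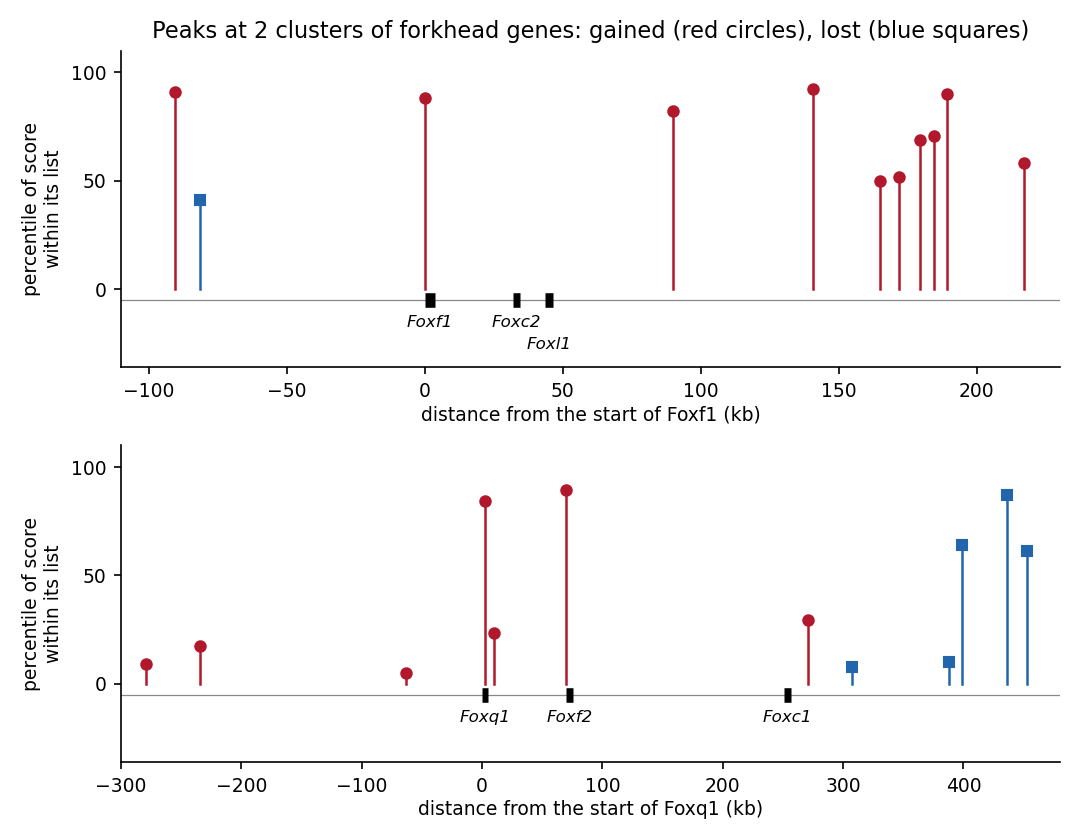
Peaks at the *Foxf1*, *Foxc2* and *Foxl1* cluster (top) and at the *Foxq1*, *Foxf2* and *Foxc1* cluster (bottom), in kb from the start of *Foxf1* or *Foxq1*, with black bars for the genes (drawn with a minimum width). Red circles are gained and blue squares lost peaks, their height is the percentile of the score within its list, and the 8 gained peaks beyond *Foxl1* contrast with the 5 lost peaks beyond *Foxc1*.

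*Foxf1* itself had a gained peak 97 bp upstream of its TSS (174.5) and a second one 90.4 kb upstream (192.5). Its lost peak lay 81.3 kb upstream, in the noncoding gene *Gm28324*, with a score of 33.3. *Foxf2*, a factor of mesenchyme and pericytes, had a single gained peak 263 bp upstream (182.5), in an exon of the noncoding gene *1700018A04Rik*. A peak at such a shared start cannot be given to either gene. *Foxq1* had a gained peak in its 3′ UTR, 1.97 kb from the TSS (148.5). This peak also lies within the coding gene *A530084C06Rik*, whose TSS is nearer (1231 bp), and is counted at *Foxq1* by its distance from the gene body. *Foxq1* had 4 others with scores between 27 and 39, of which 3 lay 63.5, 235 and 279 kb upstream. *Foxs1*, which is expressed in perivascular cells, had a lost peak that covered its TSS, with its centre 46 bp upstream. Its score of 88.8 was at percentile 94.8 of the lost list, the highest of the forkhead family, and a gained peak of moderate score (53) lay 6.18 kb upstream. *Foxc2*, *Foxd1*, *Foxd2* and *Foxh1*, the last a SMAD partner in Nodal signalling, had no listed peak.

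The FOXO factors, which are held in the cytoplasm by insulin and AKT signalling and otherwise activate stress, atrophy and cell cycle arrest genes, had 11 gained peaks and 1 lost peak. Of the 4 genes, 3 had a gained peak (interval 30.1 to 95.4%, which includes 37.4%). None lay within 3 kb of a TSS (0 of 4 genes, Wilson upper bound 49.0%, against 12.3% of all protein-coding genes). *Foxo1*, required for vessel formation in the embryo, had 4 gained peaks with scores of 62.5, 203.5, 61 and 35.5 at 80.9, 68.8 and 21.9 kb upstream and 89.1 kb downstream, and a lost peak 109 kb downstream (22.7). *Foxo6* had 4 between 9.51 and 47.8 kb downstream (53 to 125). *Foxo3* had 3, of which the 2 within the gene scored 106 and 43.5 and the last, 96.3 kb downstream, scored 32.5. *Foxo4*, on the X chromosome, had none.

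Around the FOXO pathway, 9 of 18 upstream regulators and cofactors had a gained peak (interval 29.0 to 71.0%, which includes the 37.4% of all protein-coding genes) and 6 had a lost peak (33.3%, 16.3 to 56.3, against 10.8%). These genes had a median assigned sequence of 127 kb, and 17.5% of all protein-coding genes with 100 to 200 kb had a lost peak, which lies within that interval. The kinase gene *Akt1* had 1 gained peak, and the insulin receptor gene *Insr* had 1 lost peak. *Igf1r*, the IGF receptor gene, had 5 gained and 1 lost, and the adaptor gene *Irs2* had 3 of each. Of 16 FOXO target genes, 8 had a gained peak (interval 28.0 to 72.0%, which includes 37.4%), including the cell cycle inhibitor gene *Cdkn1a* (2, with 1 at its promoter), the apoptosis gene *Bcl2l11* (7) and the atrophy genes *Trim63* (1) and *Fbxo32* (2). Lost peaks were at 4 targets (25.0%, 10.2 to 49.5, against 10.8%), *Ccng2*, *Cdkn1b*, *Sesn1* and *Sesn3*, with 1 each and no gained peak.

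The FOXP factors, repressors with partners in the NuRD complex, had 15 gained and 2 lost peaks, with a gained peak at 3 of 4 genes (interval 30.1 to 95.4%, which includes 37.4%). *Foxp4* had 6 gained peaks, 3 of them within 3 kb of a TSS. The peak 477 bp upstream scored 322 (percentile 98.1), the highest of the 77 gained forkhead peaks. The others at starts, 564 and 683 bp inside a transcript, scored 175.5 and 149.5. A pair of intronic peaks about 15 kb inside the gene scored 129 and 104, and the sixth, 33.7 kb upstream, scored 102.5. Every *Foxp4* peak thus scored above the list median. *Foxp1*, which acts in myocardial growth and outflow tract septation, also had many gained peaks (8), but none was at a start and the scores were lower, between 28 and 110.5. Of these, 5 lay within the gene and 3 outside it. Its 2 lost peaks lay in an intron (34.2) and 220 kb downstream (26.4), and the intronic one was 4.82 kb from a gained peak with a score of 106. *Foxp3*, the factor of regulatory T cells, had 1 gained peak, 5.88 kb upstream within *Ppp1r3f* (71). *Foxp2* had none in an assigned sequence of 720 kb.

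Of 10 FOXP partners and targets, 6 had a gained peak and 1 a lost peak. Both intervals, 31.3 to 83.2% and 1.79 to 40.4%, include the shares of all protein-coding genes (37.4% and 10.8%). Gained promoter peaks were at 4 of the 10 (16.8 to 68.7%, against 12.3% of all protein-coding genes). These were *Ctbp2* and *Hdac2*, which encode corepressors, the growth factor gene *Fgf16*, and *Nfatc1*, a regulator of endocardial cushions. *Gatad2a* and *Nkx2-5* had 1 gained peak each, away from the promoter. *Ctbp1*, *Gatad2b*, *Mta1* and *Fgf20* had no listed peak.

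Among the 11 members grouped as cell cycle and widely expressed factors, 6 had gained peaks and only *Foxn3* had a lost peak. The intervals were 28.0 to 78.7% and 1.62 to 37.7%, which include 37.4% and 10.8%. The group is a mixed one and also holds *Foxn1*, *Foxn4*, *Foxr1* and *Foxr2*, which its name does not describe. *Foxn3*, a repressor of checkpoint genes, had 6 gained peaks with scores between 31 and 80, none at its promoter, and a lost peak 149 kb upstream in *Efcab11* (47.6), 3.36 kb from a gained peak (76.5). *Foxj2* had a gained peak 175 bp inside its 5′ UTR (133), and *Foxn4*, a factor of retinal progenitors, had one 462 bp upstream (94). *Foxj3*, *Foxk1* and *Foxn2* had only far or intronic peaks, with scores between 31 and 111.5. *Foxm1*, which drives genes of mitosis, had no listed peak. Of 11 FOXM1 target genes, *Birc5*, *Ccnb2* and *Cenpf* had 1 gained peak each and *Ccnb2*, the cyclin B2 gene, had 2 lost peaks. That share with a gained peak (27.3%, 9.75 to 56.6) was not above the 37.4% of all protein-coding genes.

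The 12 neural, ectodermal, ciliary and gonadal factors had 12 gained and 2 lost peaks, at 6 and 2 genes (intervals 25.4 to 74.6% and 4.70 to 44.8%, which include 37.4% and 10.8%). *Foxl2*, the ovarian factor, had a gained peak covering its TSS (170). *Foxe1*, a thyroid factor, had 5 gained peaks and 1 lost peak. The gained peak in its coding exon, 801 bp from the TSS, scored 128.5, while the lost peak 696 bp upstream scored 70.7 (percentile 89.3), so that this promoter held a lost and a gained peak 1497 bp apart. A gained peak 38.6 kb upstream of *Foxe1* scored 234 and held 25 CpG dinucleotides at 80.1% GC. *Foxb1* had 3 peaks between 45.3 and 93.6 kb downstream (42.5 to 49.5), and *Foxb2* and *Foxi1* had 1 each (51.5 and 40.5). The lost peak of *Foxd3* lay 164 kb upstream (29.7).

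No gained peak overlapped a lost peak at any forkhead gene or at any other protein-coding gene. Centres within 1 kb were found at no member and at 0.0729% of all protein-coding genes. Centres within 10 kb were found at 5 members (11.4%, against 1.29%), *Foxe1*, *Foxf1*, *Foxn3*, *Foxp1* and *Foxs1*.

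**Figure D3:**
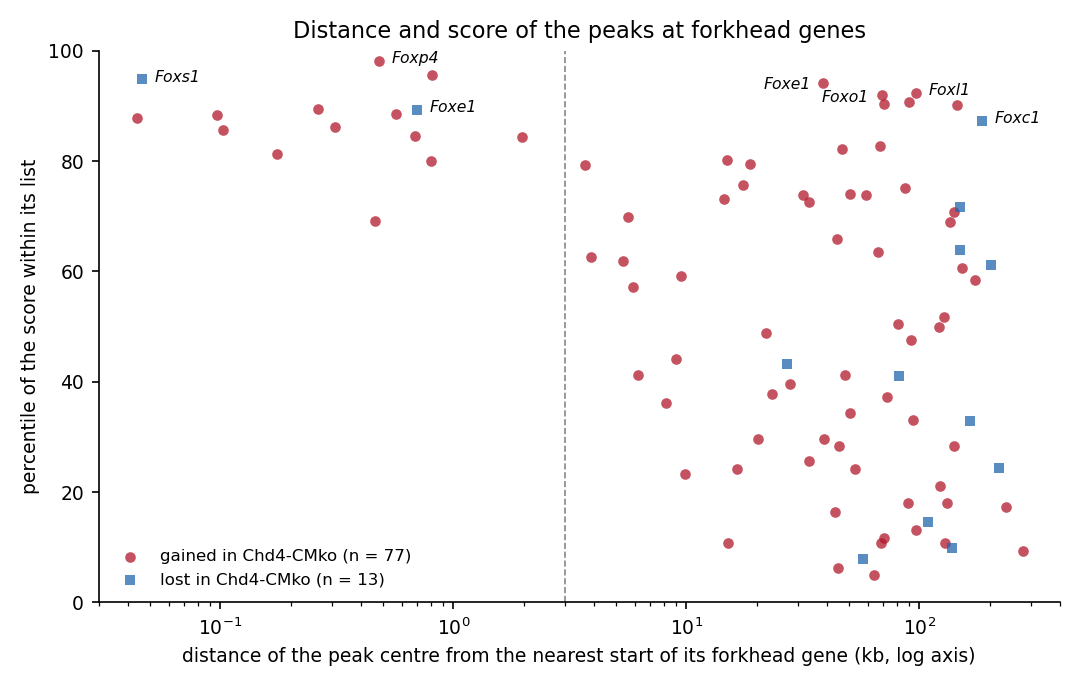
Distance of each forkhead peak from the nearest start of its gene (log axis, kb) against the percentile of its score within its own list, for 77 gained (red circles) and 13 lost (blue squares) peaks. The dashed line marks 3 kb, and every gained peak to its left lies at or above percentile 69.1.

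Many of the peaks lay far from coding gene starts. The assignment rule itself uses this distance, and forkhead genes have more assigned sequence than most, so the distances are a description with no test. Of the gained forkhead peaks, 32 of 77 (41.6%) were farther than 50 kb from any protein-coding TSS, against 26.1% of the other gained peaks, and without *Foxl1* the count was 25 of 69 (36.2%). Of the lost peaks, 10 of 13 (76.9%) were, against 33.1%, and without *Foxc1* 5 of 8 (62.5%). Within 3 kb of a coding TSS were 19.5% of the gained forkhead peaks and 22.9% of the others. Introns held 45.5% and 47.7% of these peaks, which did not differ detectably (−2.28 points, −13.0 to 8.82). Of the 77 gained peaks, 31 were intergenic, 18 lay in an intron of the forkhead gene and 17 in an intron of another gene only. GC content over all gained forkhead peaks was 58.4% ± 9.99 (n = 77) and over the other gained peaks 56.6% ± 8.54. Over lost peaks it was 50.7% ± 7.17 (n = 13) and 50.4% ± 5.84.

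The extent of sequence around a gene bears on its count. The sequence in which the rule would give a peak to a gene had a median of 102 kb for forkhead genes and 56.2 kb for all protein-coding genes, although 14 of the 44 members had under 50 kb. Over the 8.63 Mb assigned to the family there were 8.92 gained peaks per Mb (exact Poisson 95% interval 7.04 to 11.2), against 4.89 elsewhere, and 1.51 lost peaks per Mb (0.802 to 2.58), against 1.04. Without the *Foxl1* and *Foxc1* loci the densities were 8.37 gained and 0.985 lost peaks per Mb. The interval of the lost density over the whole family included 1.04, and without these loci the density was below that value. A gained peak was found at 6 of 14 members with under 50 kb (24.7% of all protein-coding genes in that class), 3 of 8 with 50 to 100 kb (37.0%), 6 of 8 with 100 to 200 kb (51.0%), 7 of 8 with 200 to 400 kb (61.6%) and 5 of 6 with more (62.9%). At the rates of these classes, 19.2 of the 44 genes would have a gained peak and the family would have 42.7 gained peaks, where 27 and 77 were found. For lost peaks the rates give 7.07 genes and 9.67 peaks, where 8 and 13 were found. Gained peaks therefore exceeded the rate for genes of like extent by more than lost peaks did, as a description with no test.

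**Figure D4:**
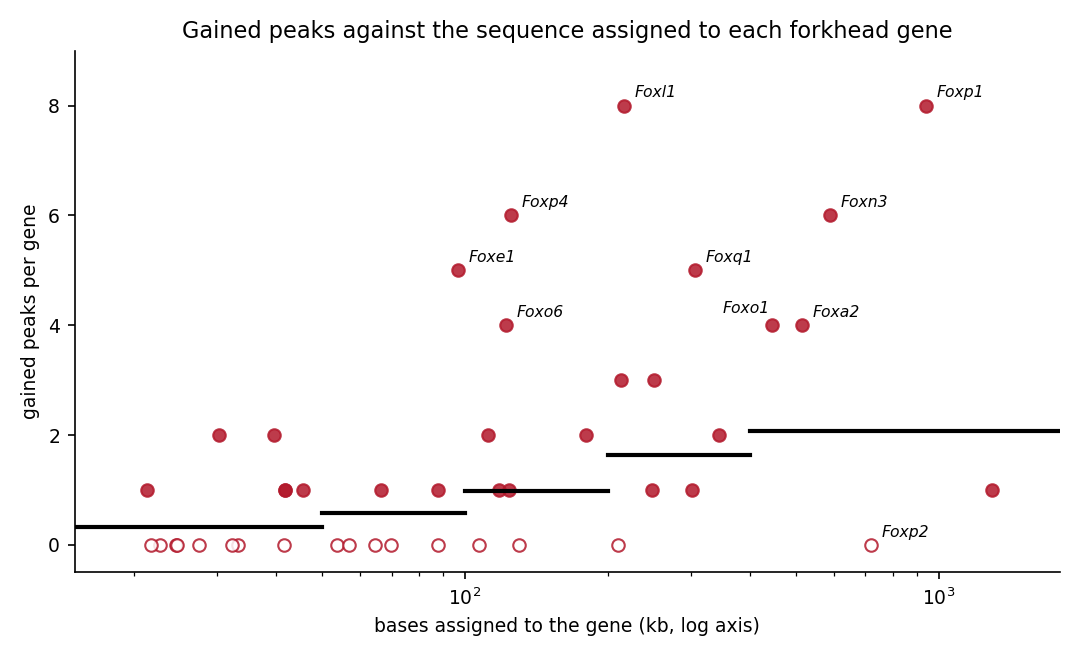
Gained peaks at each of the 44 forkhead genes against the sequence assigned to the gene (log axis, kb), with open circles for genes with none. Black lines are the mean per protein-coding gene in each size class, from 0.327 below 50 kb to 2.08 above 400 kb, and *Foxl1*, *Foxp1*, *Foxp4* and *Foxe1* are among the genes farthest above the line of their class.

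Other families of developmental transcription factors also had shares above 37.4%. The Sox, Gata, Tbx and nuclear receptor shares were higher than the forkhead share of 61.4%, and the Hox share was lower. Differences between families were not tested, and the median assigned sequence ran from 27.4 kb (Hox) to 181 kb (Tbx). A gained peak was found at 16 of 19 Sox genes (84.2%, 62.4 to 94.5), 5 of 6 Gata genes (83.3%), 10 of 13 Tbx genes (76.9%) and 35 of 49 nuclear receptor genes (71.4%, 57.6 to 82.2). The 22 of 39 Hox genes with one (56.4%) shared 12 peaks, as neighbours in a cluster do. The interval of the forkhead share overlapped those of all 5 families, so that a higher share than 37.4% was not particular to forkhead genes. Lost peaks were at 5 Sox (26.3%), 2 Gata (33.3%), 2 Tbx (15.4%), 8 nuclear receptor (16.3%) and 1 Hox gene (2.56%), against 10.8% of all protein-coding genes. Among 22 targets or partners of FOXC, FOXF and FOXH1 factors, 18 had a gained peak (81.8%, 61.5 to 92.7, against 37.4%) and 5 a lost peak (22.7%, 10.1 to 43.4, against 10.8%), in a median assigned sequence of 211 kb. Of all protein-coding genes with 200 to 400 kb, 61.6% had a gained peak and 30.6% a lost peak. Both values lie within the intervals of these 22 genes. Gained promoter peaks were at 8 of them (36.4%, lower bound 19.7%, against 12.3%), including the Notch pathway genes *Dll4* and *Notch1* and the chemokine receptor gene *Cxcr4*. The lymphatic factor gene *Prox1* had 8 gained peaks, and *Hey2*, a Notch target of the ventricles, had 1 lost peak only.

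**Figure D5:**
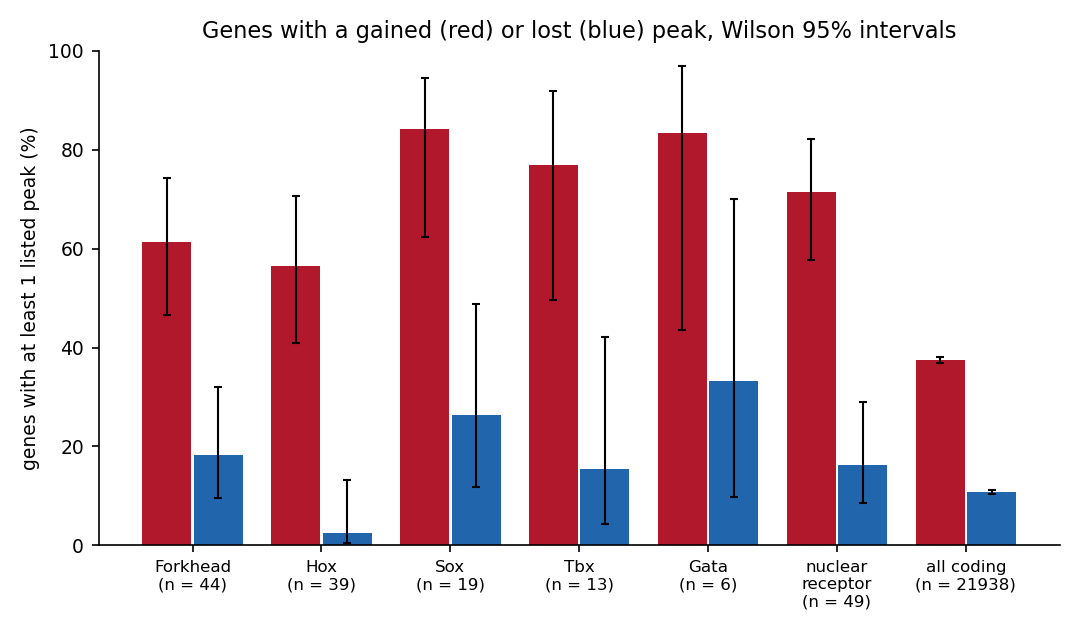
Share of genes with at least 1 gained (red) or lost (blue) peak in the forkhead family, 5 other transcription factor families and all protein-coding genes, with Wilson 95% intervals as bars. The forkhead share of gained peaks (61.4%) lies above that of all coding genes (37.4%) and its interval overlaps those of the other 5 families.

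Binding strings of the family itself were searched in the same way. A forkhead string, searched as TGTTTAC or TATTTAC on both strands, occurred in 2 of 77 gained forkhead peaks (2.60%, 0.715 to 8.98) against 1.67% of the other gained peaks. It occurred in 0 of 13 lost peaks (upper bound 22.8%) against 3.15%. With 1 mismatch allowed, the shares were 37.7% of gained forkhead peaks against 30.6% of the others, and 53.8% of lost ones against 46.5%. The pair of peaks with the string lay in introns of *Foxn3* (92.3 kb from the nearest TSS, score 59.5) and *Foxp1* (43.2 kb, 34.5). They are shown with the string in capitals. In the *Foxp1* peak a GATA string (AGATAA) is in capitals as well.

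Foxn3, gained, chr12:99198870-99199020: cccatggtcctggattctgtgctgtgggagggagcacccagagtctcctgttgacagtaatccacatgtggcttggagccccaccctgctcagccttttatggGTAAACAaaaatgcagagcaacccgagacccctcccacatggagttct
Foxp1, gained, chr6:99309675-99309825: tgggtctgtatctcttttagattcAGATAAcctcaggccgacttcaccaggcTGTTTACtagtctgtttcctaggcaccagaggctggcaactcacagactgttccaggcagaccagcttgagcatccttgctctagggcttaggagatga

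Of the other strings in gained forkhead peaks, GATA occurred in 9.09% (others 11.2%), KLF (GGGTGTGG or GGGCGTGG) in 7.79% (7.92%), TEAD (GGAATG) in 9.09% (11.4%) and MEF2 in 1.30% (3.27%). CTCF and ETS strings occurred in none of the 77 (upper bound 4.75%), against 0.287% and 2.42% of the other gained peaks. Every interval of these differences included 0. The CTCF string was a strict form, found in only 37 of the 12914 other gained peaks. Its absence therefore does not show that the forkhead peaks lack CTCF sites. Of 28 forkhead genes with a promoter window in the RefSeq table for GRCm38.p6, gained peaks overlapped the windows of 4 (14.3%), *Foxa2*, *Foxa3*, *Foxf2* and *Foxl2*, against 4.64% of 16522 protein-coding genes with a window. No lost peak overlapped any of the 28, for which the Wilson upper bound is 12.1%, and the share over all protein-coding genes was 0.115%.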

How the data were processed

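ATAC-seq measures accessible DNA by Tn5 insertion. Hearts at E10.5 gave 4 WT and 4 *Chd4-CMko* samples, each from pooled hearts (3 per the design text, 4 per the extract protocol) and 40000 viable cells. Per the submitters' processing notes and the study's methods, reads were aligned to mm10 with BWA-MEM, and HOMER (version 4.10.3) and ChIPseeker (version 1.20.0) were used for peaks and their annotation. Read filters, duplicate handling, the Tn5 shift and the way the 4 samples were combined are not given in the sources used here, and each can change which peaks pass. The deposited value is a peak score made by the authors, of unstated scale, so it was ranked within a list only. The exception is an alternative score limit that applied the median of the lost list to both lists. No depth or value per sample was had, so no test between genotypes was made.

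Peaks (151 bp) were placed by their middle base on GENCODE M21 with every transcript start as a TSS. For the 10 kb limit around a gene body, any base of the peak counted. Genes with mostly readthrough transcripts were left out of the intron and intergenic classes. Assigned sequence excludes unsequenced bases. Shares have Wilson and differences Newcombe 95% intervals, densities exact Poisson ones. Strings were counted on both strands. Python (3.11.15), numpy (2.4.6) and scipy (1.17.1) were used, and the assignment and the intervals were tested on simulated data. Members, roles, pathway lists and named genes (all with a promoter or lost peak, the 10 with the most gained peaks and the 10 highest scores per list) were chosen with earlier results of these data known. The genes of each list are from general knowledge. Alternatives were another assignment rule, TSS set, promoter window, score limit, string and overlap, and, chosen after seeing the data, the family without *Foxl1*, *Foxc1* or both. Some items are not reported here by name and enter only the counts.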

Additional observations from a re-analysis of the deposited data

How the results depend on the processing

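Except where a value for other genes or peaks stands beside them, the values below cover the forkhead genes alone. The values of other genes and peaks given above belong to the main rule and are no comparison for the values below. Counting only peaks within 10 kb of a gene body, 3 forkhead genes had a lost peak, the gained share was 92.9%, the promoter share of gained peaks 33.3% and the density 12.5 gained peaks per Mb. With the nearest TSS of any annotated gene these were 3 genes, 93.5%, 30.2% and 12.2 per Mb, because 57 of the 90 peaks had a noncoding gene nearer than the member. Within 50 kb of a member TSS they were 3 genes, 93.6% and 29.5%, with 0.742 lost peaks per Mb. Within 3 kb only, 11 genes had a gained peak (25.0%, against 12.3% of all protein-coding genes) and 2 a lost peak (4.55%, against 1.23%). The densities within 3 kb were 27.0 gained and 4.16 lost peaks per Mb. Above the median score of the own list, 4 genes had a lost peak, the promoter share was 29.5%, and densities were 5.10 gained and 0.695 lost per Mb. Above the median of the lost list, 4 genes had a lost peak, the gained share was 91.5% and there were 0.695 lost peaks per Mb. This limit was applied to both lists, whose scores may differ in scale, so no conclusion is drawn from its gained share. A promoter window of 10 kb gave a promoter share of 29.9%. With 1 mismatch allowed, forkhead strings were in 37.7% of gained forkhead peaks (30.6% of the others) and 53.8% of lost ones (46.5%). Loci with gained and lost peaks numbered 0 by overlap of 1 bp and 0 with centres within 1 kb. The count of genes with a gained peak stayed between 21 and 27 except within 3 kb. Without the *Foxl1* and *Foxc1* loci the gained share was 89.5% and densities were 8.37 gained and 0.985 lost peaks per Mb. Of all values under these alternatives, 28 moved beyond their interval, spread or set factor and 33 did not. No paired analysis was possible because each genotype has 1 pooled list and no value per sample, and for the same reason no sample could be left out in turn. Counts are low for the lost peaks (13).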
